A study of Rattus norvegicus with 42 samples.

Results

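Fkbp5 encodes FKBP5 (also called FKBP51), an immunophilin that binds the chaperone HSP90 and joins the complex that holds the glucocorticoid receptor (GR) in the cytoplasm. It was followed here through 3 readouts in rat liver: GR binding around the gene, elongating RNA polymerase II over it, and its RNA. Fkbp5 was found by its gene name in the table of polymerase values, and its Ensembl identifier (ENSRNOG00000022523) gave its row in the RNA count table, 1 of 22929 genes. All GR binding regions centred within 150 kb of its transcription start site (TSS) were taken with it, whichever gene they had been annotated to, which gave 7 of 3981 regions.

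Male Sprague Dawley rats, all adrenalectomised and therefore without their own adrenal corticosterone, received 3 h intravenous infusions of corticosterone (CORT) or vehicle (VEH). The pulsatile infusion (PULS) ran for 20 min of each hour at 1 ml/h, and the constant infusion (CONS) ran without pauses at 0.333 ml/h, after 10 min at 1 ml/h to clear the lines in the case of CORT. ChIP-Seq for GR and for polymerase II phosphorylated at serine 2 of its C-terminal repeat (pSer2 Pol2, the elongating form) used 10 libraries each, 2 for each of 5 groups: PULS at the third pulse peak at 140 min (PEAK_140), PULS at the following nadir at 180 min (NADIR_180), CONS at 140 min (CONS_140), CONS at 180 min (CONS_180), and VEH. The VEH libraries came from pulsatile vehicle infusions, 1 at 140 min and 1 at 180 min, a constant vehicle ChIP group was not analysed here, and each ChIP library pooled 6 rats. RNA-Seq used 12 libraries at 180 min, 3 each for PULS CORT, PULS VEH, CONS CORT and CONS VEH. Depth was 2051977 to 6715803 tags for GR, 4938473 to 9326927 tags for pSer2 Pol2 and 3956379 to 7777219 counted reads for RNA. For GR it was 2051977 to 3026250 in the PULS libraries and 3663062 to 6715803 in the CONS ones. The library numbers of the PULS GR samples form a series apart from those of VEH and CONS. Pattern therefore cannot be told apart from library series or depth where PULS is compared with CONS for GR, nor from series where it is compared with VEH. All 8 hepatocyte markers examined were in the RNA table, with a summed level of 103823 to 155480 CPM (read counts scaled to library size) per library.

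Ligand-bound GR leaves the HSP90 complex, enters the nucleus and binds glucocorticoid response elements (GREs), and Fkbp5 is one of its most widely shared target genes. The FKBP5 protein lowers the affinity of GR for hormone, whereas its relative FKBP4 favours transport of the receptor to the nucleus, so that induction of Fkbp5 forms a short negative feedback loop within the cell. The comparisons below address how this gene followed pulses of hormone and how it followed hormone given without pauses. In whole liver, fewer cells of a type and less RNA per cell cannot be told apart.

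Fkbp5 lies on the minus strand of chromosome 20 in the rn6 build, with its TSS at 8019020 by transcript ENSRNOT00000033119. The RefSeq promoter of the gene, given on the newer GRCr8 build at chr20:6543556-6543805 (minus strand, the 250 bases before the RefSeq start), is shown as the promoter of a gene whose RNA rose in both patterns. The RefSeq transcript is longer than the Ensembl one and starts farther upstream, so this is not the sequence next to the Ensembl TSS from which all distances here are measured. It is printed 5′ to 3′ with GC boxes in capitals.
Fkbp5: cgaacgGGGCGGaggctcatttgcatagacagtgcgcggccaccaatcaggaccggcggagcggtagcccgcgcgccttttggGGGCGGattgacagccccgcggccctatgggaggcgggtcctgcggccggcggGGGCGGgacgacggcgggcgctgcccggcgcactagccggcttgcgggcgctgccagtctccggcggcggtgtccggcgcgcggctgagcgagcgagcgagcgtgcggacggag
The letters GGGCGG (or CCGCCC on the other strand) occurred 3 times in it, and 30.5% of 33469 RefSeq promoters of the same length held them at least once and 7.41% at least 3 times. CCAAT (or ATTGG) occurred once, with no overlap with a GC box, and 34.02% of promoters held it at least once. TATAAA (or TTTATA) did not occur, against 12.9% of promoters that held it. The GRE hexamer AGAACA (or TGTTCT), found in 17.5% of promoters, was not among the letters of this window, nor was the full palindrome of the hexamer, 3 bases and its reverse complement, found in 0.0120%. G and C made up 76% of the window, against a median of 51.2% over all promoters. Its position on GRCr8 was not carried over to rn6, so the distances of the GR regions from it were not determined, and the sequences of the GR regions themselves were not read here.

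The 7 GR regions were spread over the gene and its upstream flank. One was 20.0 kb downstream of the TSS (chr20:7998712-7999337 in rn6), inside Fkbp5, in intron 4 of 9 of the Ensembl transcript and intron 5 of 10 of the RefSeq one. Another was 1.3 kb upstream (chr20:8020046-8020671), intergenic by Ensembl but in intron 1 of 10 of the longer RefSeq transcript. The other five were intergenic or at a neighbour. A cluster of 3 lay 73.0, 78.3 and 84.1 kb upstream (chr20:8091727-8092352, chr20:8096987-8097612 and chr20:8102811-8103489), separated by 5.26 and 5.85 kb. All 3 of these had been annotated to Armc12, an armadillo-repeat gene that starts 90.6 kb upstream of Fkbp5 on the opposite strand, and those at 78.3 and 84.1 kb carried a CpG annotation. The remaining regions were at 112.2 kb (chr20:8131026-8131421, at the end of transcript ENSRNOT00000083619 of AABR07044492.1, over a B1_Mur4 SINE repeat) and at 143.7 kb (chr20:8162351-8163115, at -2574 bases from the start of Pim1, a serine/threonine kinase gene).

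Having 7 regions within 150 kb was uncommon, as 275 of 26426 genes (1.04%) had as many or more, 64.7% had 0 and the highest number was 18. Windows of 50, 100 and 250 kb held 2, 5 and 9 regions. The nearest regions beyond the edge lay at -155.69 and -197.36 kb (negative is downstream), near AC106225.1 and Ppard. Their levels ranged from 3.76 to 3.93 and from 3.61 to 5.28 at PEAK_140, and from -0.92 to -0.76 and from -0.87 to -0.68 in VEH.

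**Figure D1:**
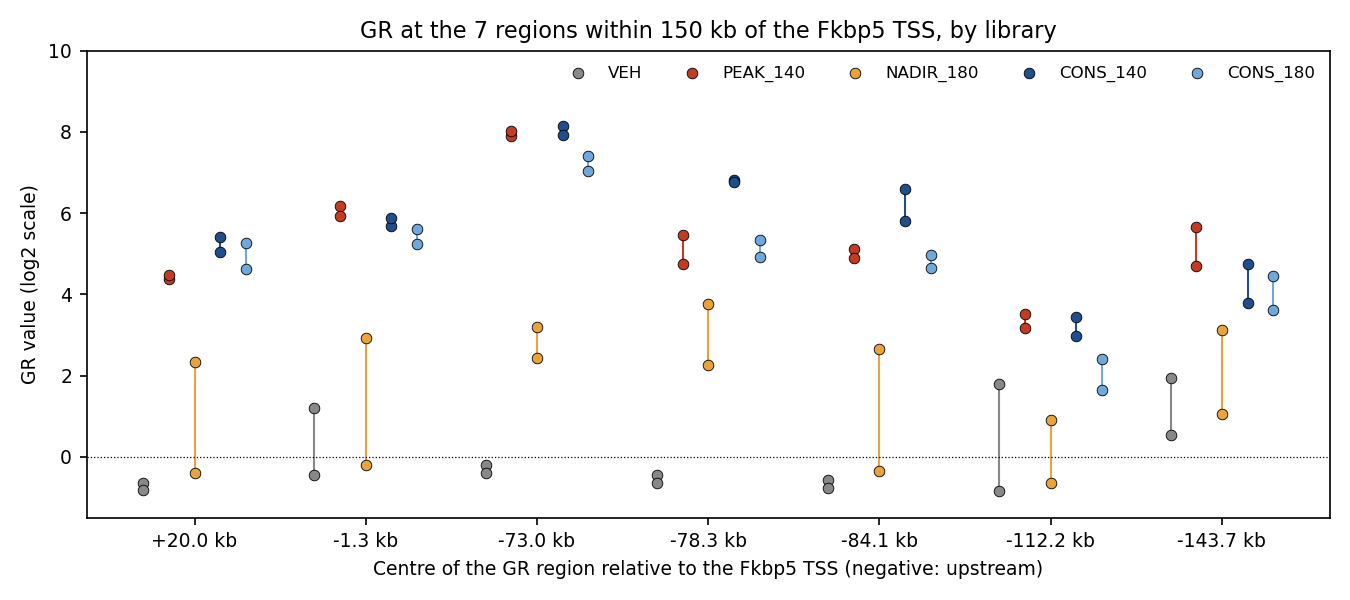
GR values on the deposited log2 scale (vertical axis) at the 7 regions, placed by the distance of their centres from the Fkbp5 TSS (horizontal axis). Each point is 1 library, a line joins the 2 libraries of a group, and the dotted line marks 0. PEAK_140, CONS_140 and CONS_180 sit above VEH at 6 regions with no overlap, and at 112.2 kb one CONS_180 library falls below one VEH library.

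GR was raised over VEH at all 7 regions at PEAK_140 and at CONS_140, at 6 at CONS_180 and at 2 at NADIR_180 (limma over all 3981 regions, adjusted p below 0.05 and more than 1.5-fold). Over all regions, 78.6% were raised at PEAK_140, 64.7% at CONS_140, 67.9% at CONS_180 and 7.44% at NADIR_180. The regions had been defined as peaks in these same libraries, so binding in at least 1 group was a condition of entering the table. By the deposited peak lists, a PEAK_140 peak covered 7 of the 7 regions (80.6% of all regions), CONS_140 and CONS_180 peaks covered 6 each (43.3% and 61.0%), and NADIR_180 and VEH peaks covered 0 (1.81% and 2.91%). The region without a peak in either CONS group was the one at 112.2 kb. It also was the one not raised at CONS_180.

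At PEAK_140, CONS_140 and CONS_180, but not at NADIR_180 or in VEH, the region 73.0 kb upstream had the highest mean GR level of the locus. Its values were -0.19 and -0.40 in VEH, 7.90 and 8.01 at PEAK_140, 2.43 and 3.19 at NADIR_180, 8.14 and 7.93 at CONS_140, and 7.03 and 7.40 at CONS_180. The libraries of the 5 groups did not overlap except for PEAK_140 and CONS_140. Relative to VEH the log2 fold change was 8.25 at PEAK_140 (SE 0.38, adjusted p = 5.89e-06 from limma), 8.32 at CONS_140 (adjusted p = 4.72e-06) and 7.51 at CONS_180 (adjusted p = 1.00e-05). These ranked 1, 1 and 2 among the 3981 regions. By mean level it ranked 8, 10 and 13 in the same groups. Both VEH values lay below 0, where the scale may be at its floor, which was not tested. The size and rank of the changes over VEH depend on those low values. At the nadir the change over VEH was 3.11 (limma adjusted p = 0.00208), a call that was lost with centring (1.93, adjusted p = 0.355) and quantile normalization (1.24, adjusted p = 0.280).

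Its neighbour 78.3 kb upstream was the other region raised at the nadir. Values were -0.44 and -0.64 in VEH, 4.76 and 5.46 at PEAK_140, 3.76 and 2.25 at NADIR_180, 6.81 and 6.77 at CONS_140, and 5.34 and 4.91 at CONS_180. The nadir libraries were both above VEH and both below every other CORT library. The change at NADIR_180 was 3.54 (SE 0.59, limma adjusted p = 0.00732), against 5.65 at PEAK_140 and 7.33 at CONS_140. This nadir call, too, was lost with centring (2.37, limma adjusted p = 0.113) and quantile normalization (1.73, adjusted p = 0.102), and neither nadir call was made from only the libraries compared. At this region CONS_140 was higher than PEAK_140 in both libraries, by 1.68, but the difference did not pass the test (limma adjusted p = 0.287).

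The intronic region 20.0 kb into the gene had values of -0.63 and -0.82 in VEH, 4.37 and 4.48 at PEAK_140, 2.35 and -0.40 at NADIR_180, 5.04 and 5.42 at CONS_140 and 4.63 and 5.28 at CONS_180. The region at 1.3 kb had values of -0.46 and 1.21 in VEH, 6.18 and 5.94 at PEAK_140, 2.92 and -0.21 at NADIR_180, 5.68 and 5.89 at CONS_140 and 5.25 and 5.62 at CONS_180. At both, the nadir libraries stood 2.75 and 3.13 apart, and at 1.3 kb one of them lay above both VEH libraries and the other between them. Their changes at PEAK_140 were 5.15 (SE 0.85) and 5.68 (SE 0.96), with limma adjusted p of 0.000659 and 0.000761. The region at 84.1 kb had -0.58 and -0.77 in VEH, 5.12 and 4.89 at PEAK_140, 2.66 and -0.34 at NADIR_180, 6.61 and 5.82 at CONS_140, and 4.66 and 4.97 at CONS_180. There, too, the nadir libraries were far apart, and CONS_140 held the highest values.

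The 2 outermost regions had the lowest changes over VEH of the locus in every CORT group, but their levels were not all lower. At PEAK_140 the mean at 143.7 kb was 5.18, above those at 20.0 kb (4.42), 78.3 kb (5.11) and 84.1 kb (5.01). It was below those at 1.3 kb (6.06) and 73.0 kb (7.96). The VEH mean at 143.7 kb, 1.24, was the highest of the locus. At 112.2 kb the values were 1.79 and -0.84 in VEH, 3.53 and 3.16 at PEAK_140, -0.65 and 0.90 at NADIR_180, 3.44 and 2.97 at CONS_140, and 1.65 and 2.41 at CONS_180. At 143.7 kb they were 1.94 and 0.54 in VEH, 5.67 and 4.69 at PEAK_140, 3.12 and 1.05 at NADIR_180, 4.75 and 3.80 at CONS_140, and 4.46 and 3.62 at CONS_180. Changes at PEAK_140 were 2.87 and 3.94 (limma adjusted p of 0.0208 and 0.00270), both below the median of 4.17 over all regions.

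Between the peak and the nadir of the pulse, GR fell at all 7 regions, by 2.11 to 5.15 on the log2 scale, and each passed the test, as did 68.8% of all regions in the same direction. Between CONS_140 and CONS_180, 0 of the 7 passed the limma test, 1 had an unadjusted p below 0.05, and the background was 0% of regions called. The 7 differences were 0.24 to 1.67, each with the higher value at 140 min. The contrast of these time courses, PEAK_140 minus NADIR_180 less CONS_140 minus CONS_180, passed the test at 2 of the 7 regions, against 43.6% of all regions. These were the regions at 1.3 kb (4.36, SE 1.35, limma adjusted p = 0.0319) and at 73.0 kb (4.33, SE 0.54, adjusted p = 0.00377). At the other five it was 0.44 to 3.17, with adjusted p of 0.0578 to 0.656. Without either library of PEAK_140, CONS_140 or CONS_180 the count was 1, and without NADIR_180 replicate 1 it was 5. At 180 min, CONS_180 less NADIR_180 was 1.90 to 4.40 at the 7 regions and passed the test at 5 of them (49.6% of all regions passed), but at 2 without CONS_180 replicate 1 and at 1 without CONS_180 replicate 2. PEAK_140 and CONS_140, the matched time during infusion, differed at 0 of the 7 regions by limma (1 with an unadjusted p below 0.05; 0.0502% of all regions, or 2, but 405 without CONS_140 replicate 1).

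These changes stood within a shift of nearly the whole GR table. The median log2 fold change over all 3981 regions relative to VEH was 4.17 for PEAK_140, 3.38 for CONS_140, 3.46 for CONS_180 and 0.84 for NADIR_180, and it was 3.20 for PEAK_140 against NADIR_180. In the VEH libraries 64.1% and 74.3% of all regions, and 5 of the 7 here, lay below 0. At 20.0, 73.0, 78.3 and 84.1 kb both VEH values did, with gaps of 0.19 to 0.21 between the libraries. NADIR_180 replicate 2 also lay below 0 at 20.0, 1.3 and 84.1 kb (-0.40, -0.21 and -0.34). Whether such values are those of regions without tags was not tested, and fold changes and library gaps that use them depend on how low values were set. Relative to those medians, the region at 73.0 kb was higher by 4.08 at PEAK_140, 4.95 at CONS_140 and 4.05 at CONS_180. When the median over regions was subtracted from every library, it alone of the 7 stayed called at PEAK_140 (3.64, limma adjusted p = 0.00881), the regions at 112.2 and 143.7 kb turned negative (-1.74 and -0.67), and neither fall from peak to nadir nor contrast of time courses was called at any of the 7 (at 78.3, 112.2 and 143.7 kb the fall reversed, with values of -1.33, -0.22 and -0.34).

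**Figure D2:**
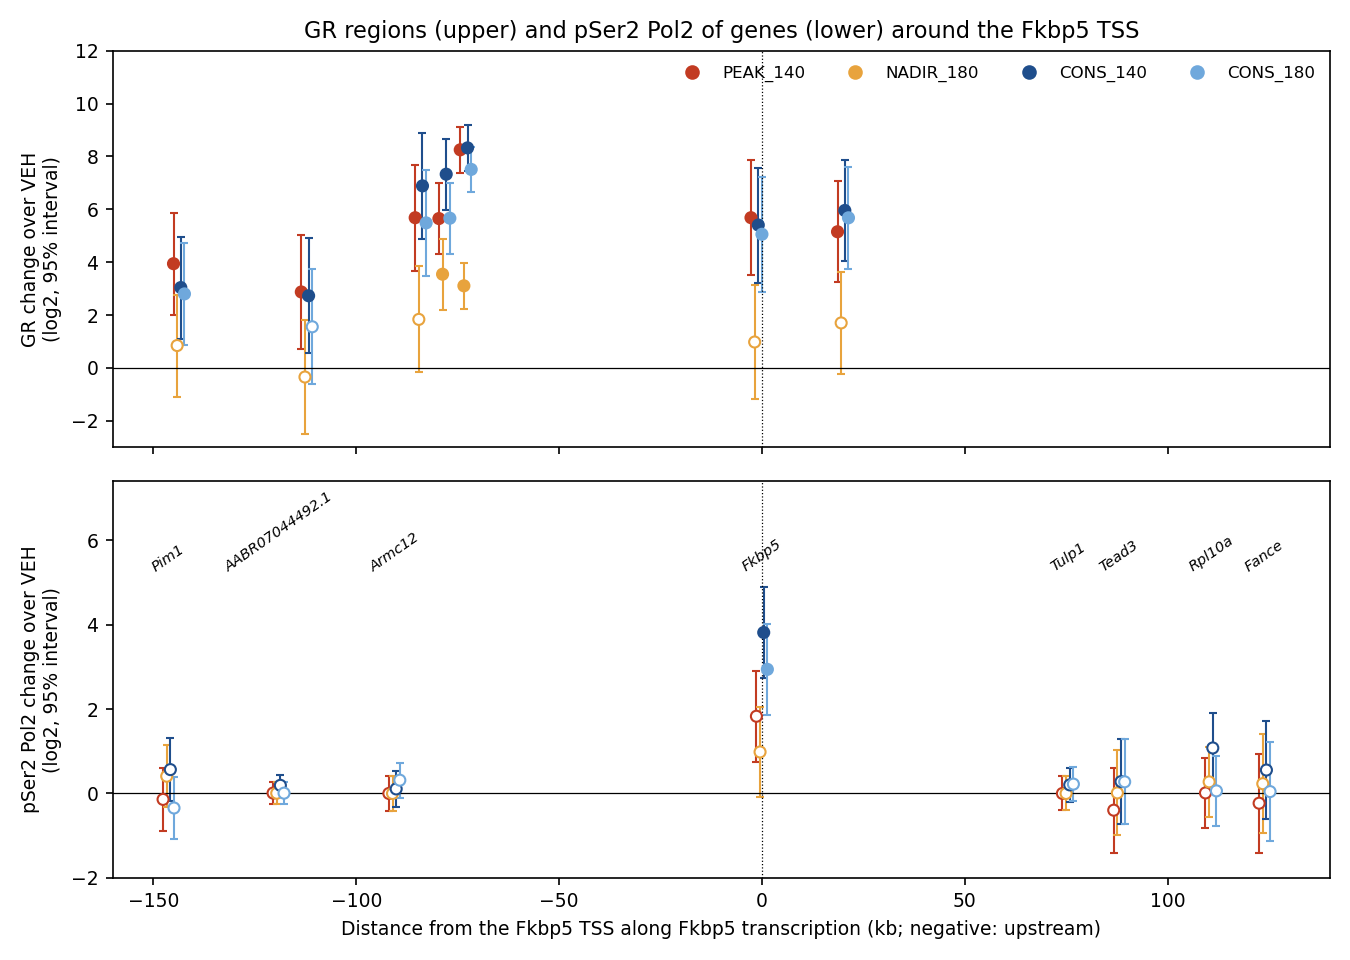
Change over VEH (log2, with 95% interval from limma) of GR at the 7 regions (upper panel) and of pSer2 Pol2 over the first 10 kb of each gene that starts within 150 kb of the Fkbp5 TSS (lower panel), by distance from that TSS (negative is upstream). Filled points passed the test. GR changes reach 8.32 at 73.0 kb, whereas in the lower panel only Fkbp5 has filled points, at CONS_140 (3.82) and CONS_180 (2.94).

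Elongating polymerase over Fkbp5 was raised in both CONS groups, and in neither PULS group did it pass the test. pSer2 Pol2 was measured over the first 10 kb of the gene, chr20:8009020-8019020. Log2 values were 4.55 and 3.04 in VEH, 5.64 and 5.61 at PEAK_140, 4.43 and 5.13 at NADIR_180, 7.94 and 7.28 at CONS_140, and 6.99 and 6.49 at CONS_180. The 4 CONS libraries were above every other library. Both PEAK_140 libraries exceeded both VEH and both NADIR_180 libraries, while NADIR_180 overlapped VEH. The VEH libraries were 1.52 apart, the widest gap of any group. Replicate 1 was infused for 140 min and replicate 2 for 180 min, so time and the spread between libraries cannot be told apart in VEH, and leaving out replicate 2 leaves the 140 min vehicle alone.

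At CONS_140 the log2 fold change over VEH was 3.82 (SE 0.49, adjusted p = 0.00508 from limma) and at CONS_180 it was 2.94 (SE 0.49, adjusted p = 0.0436), where 0.592% and 0.157% of 38315 windows were raised. Counting each distinct window once (21873), these changes ranked 15 and 23. The change at PEAK_140 was 1.83 (adjusted p = 0.173), where 0.365% of windows were raised, and that at NADIR_180 was 0.98 (adjusted p = 1.00), where 0% were raised. With 1 library left out, the PEAK_140 change was 1.07 (without VEH replicate 2, limma adjusted p = 0.625) to 2.59 and the NADIR_180 change 0.23 to 1.74, and none of these passed. Centring of each library, which moved the value to 1.92, and quantile normalization, which moved it to 2.28, brought the PEAK_140 change past the test (limma adjusted p of 0.0326 and 0.0263). The CONS calls depended on the fit and rested on few libraries. With only the libraries compared, the changes stayed at 3.82 and 2.94, but neither passed (limma adjusted p of 0.560 and 0.997). Without a variance trend, the call at CONS_180 was lost (limma adjusted p = 0.125). That at CONS_140 was lost without VEH replicate 2 (3.06, adjusted p = 0.0563) or CONS_140 replicate 1 (3.48, adjusted p = 0.186), and that at CONS_180 without VEH replicate 2 (2.19, adjusted p = 0.200) or either of its own libraries (2.69 and 3.19, adjusted p of 0.521 and 0.225).

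Direct comparisons of the polymerase values between CORT groups were not called by limma (0.0261%, 0.17%, 0.48%, 0% and 0.0574% of windows changed in PEAK_140 against CONS_140, CONS_180 against NADIR_180, PEAK_140 against NADIR_180, CONS_140 against CONS_180 and the contrast of time courses). PEAK_140 less CONS_140 gave -1.99 (95% interval -3.06 to -0.91, limma adjusted p = 0.168), a difference that passed when CONS_140 replicate 2 was left out (adjusted p = 0.0442), as then did 8579 of all windows, against 10 with it. Without the same library, 5555 windows passed between CONS_140 and CONS_180, against 0, and 7696 in the contrast of time courses, against 22. CONS_180 was 1.96 above NADIR_180 (interval 0.88 to 3.04, adjusted p = 0.393). The differences between 140 and 180 min, 0.85 for PULS and 0.87 for CONS, were not called either (limma adjusted p of 1.00 and 0.629), and the contrast of these was -0.03, with an interval of -1.55 to 1.495 that leaves room for a difference of either sign. It changed sign under centring (0.25).

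Fkbp5 RNA rose with either pattern, and its mean was highest under constant infusion. In CONS CORT the 3 libraries held 194, 97.7 and 138 CPM (955, 694 and 772 reads), and in PULS CORT 103, 58.4 and 58.9 CPM (535, 236 and 237 reads). The vehicle libraries held 19.2, 18.5 and 17.7 CPM in CONS VEH (157, 84 and 98 reads) and 13.9, 22.1 and 16.0 CPM in PULS VEH (77, 117 and 77 reads). Every CORT library was above every VEH library. Group means were 143 ± 48.3 CPM (SD, n = 3) in CONS CORT, 73.4 ± 25.6 in PULS CORT, 18.5 ± 0.72 in CONS VEH and 17.3 ± 4.24 in PULS VEH. CONS CORT and PULS CORT overlapped in 1 library each, since PULS CORT replicate 1 (103 CPM) exceeded CONS CORT replicate 2 (97.7 CPM).

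**Figure D3:**
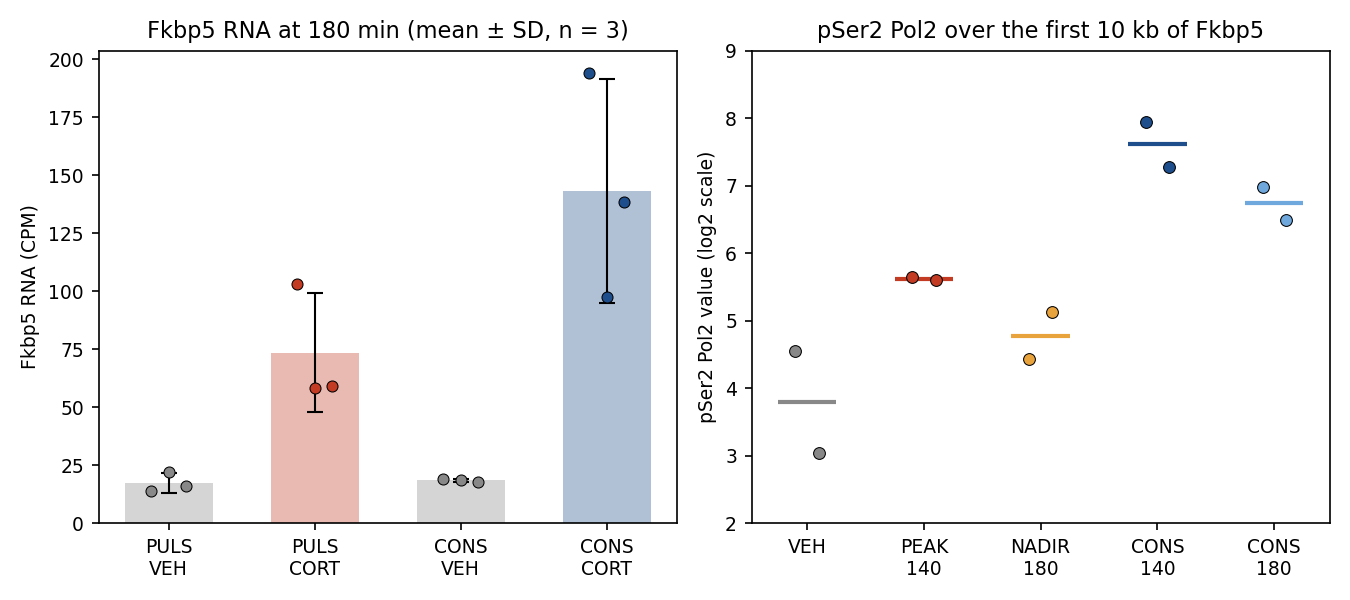
Left, Fkbp5 RNA in CPM by group at 180 min, with bars for the mean, error bars for the SD (n = 3) and points for libraries. Right, pSer2 Pol2 over the first 10 kb of Fkbp5 on the log2 scale, with points for the 2 libraries of a group and lines for their mean. RNA means run from 17.3 CPM in PULS VEH to 143 CPM in CONS CORT, and the CONS libraries are the highest for pSer2 Pol2.

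The log2 fold change over the matched vehicle was 2.09 in PULS (SE 0.26, adjusted p = 0.000217, edgeR quasi-likelihood test) and 2.95 in CONS (SE 0.26, adjusted p = 1.65e-06), or 4.23-fold and 7.76-fold as ratios of mean CPM. Of 14092 genes tested, 1.79% were raised and 2.44% lowered in PULS, and 4.45% and 4.75% in CONS. Fkbp5 ranked 99 by fold change in PULS, where 25 of the 252 raised genes had a greater change, and 55 in CONS, where 40 of 627 did. The response was larger in CONS by 0.86 (SE 0.36, interval 0.09 to 1.63), with an unadjusted p of 0.0314 and an adjusted p of 0.336 from edgeR, so it did not pass, and 0.0284% of genes did (4, but 288 without CONS VEH replicate 1).

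CONS CORT was 1.95-fold above PULS CORT, a log2 difference of 0.95 that did not pass (SE 0.23, edgeR adjusted p = 0.0704; 0.887% of genes passed). This call depended on the analysis. It was made with DESeq2 (adjusted p = 0.0113), without a filter on low counts (0.00311), with a replicate block (0.0391), without CONS CORT replicate 2 (1.17, 0.0173) and without PULS CORT replicate 1 (1.28, 0.0152), and not made when any other single library of these groups was left out. The vehicle groups differed by 0.09 (edgeR adjusted p = 0.948). Each ChIP library pooled several rats, and the sources used here do not tie an RNA library to a pool, so the readouts cannot be paired within an animal.

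No gene tested around Fkbp5 was called. Of the 7 other genes that start within 150 kb, 0 passed the limma test for pSer2 Pol2 in any of the 9 contrasts, and 7 of these 63 tests had an unadjusted p below 0.05. Changes over VEH were -0.40 to 0.01 at PEAK_140, 0.11 to 1.08 at CONS_140 and -0.34 to 0.32 at CONS_180. The value of 1.08 was that of Rpl10a, a ribosomal protein gene, with 6.41 and 6.09 in VEH and 7.68 and 6.98 at CONS_140 (limma adjusted p = 0.477). Its RNA was not analysed here. In RNA, Fance (a Fanconi anaemia DNA repair gene), Tead3 (a TEA domain transcription factor) and Pim1 were tested by edgeR, and none was called in either CORT comparison (0 of 6 tests with an unadjusted p below 0.05). Of all genes, 1.79% were raised and 2.44% lowered in PULS, and 4.45% and 4.75% in CONS. Pim1, whose start lies next to the GR region at 143.7 kb, had changes of -0.83 in PULS (SE 0.43, edgeR adjusted p = 0.299) and 0.11 in CONS. Fance had -0.09 and -0.07, and Tead3 -0.08 and -0.33. Armc12, to which the cluster of GR regions had been annotated, had 1 read over all 12 RNA libraries, and AABR07044492.1 and Tulp1, a gene known from photoreceptors, had 0. For pSer2 Pol2, Armc12 had a value of 0.61 in 8 of the 10 libraries, 0.83 in CONS_140 replicate 1 and 1.24 in CONS_180 replicate 1. Tulp1 had 0.75 in all but CONS_140 replicate 1 (1.16) and CONS_180 replicate 1 (1.19). AABR07044492.1 had -1.68 to -1.63 in all but CONS_140 replicate 1 (-1.25). With such near-constant values there was little signal to test at Armc12, Tulp1 and AABR07044492.1, and the lack of a call there says little.

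The other FKBP genes, a family of peptidyl-prolyl isomerases, gave 1 call between them. Of 17 members 13 were tested in RNA, and Fkbp5 was the 1 raised in both patterns, where 1.79% of all genes were raised in PULS, and 4.45% raised and 4.75% lowered in CONS. Fkbp8, whose product sits in the mitochondrial membrane and binds BCL2, was lowered in CONS (-0.61, edgeR adjusted p = 0.00106). It went from 255 ± 9.43 CPM in CONS VEH to 166 ± 18.3 CPM in CONS CORT (SD, n = 3), and had a change of 0.09 in PULS. The vehicle groups of this gene stood apart, with 244 to 261 CPM in CONS VEH and 189 to 201 CPM in PULS VEH. The 12 members other than Fkbp5 had changes of -0.60 to 0.33 in PULS and -0.61 to 0.73 in CONS. For pSer2 Pol2, 14 members had windows with tags, and Fkbp5 was again the 1 raised, at CONS_140 and CONS_180, as were 0.648% and 0.182% of all genes with windows.

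**Figure D4:**
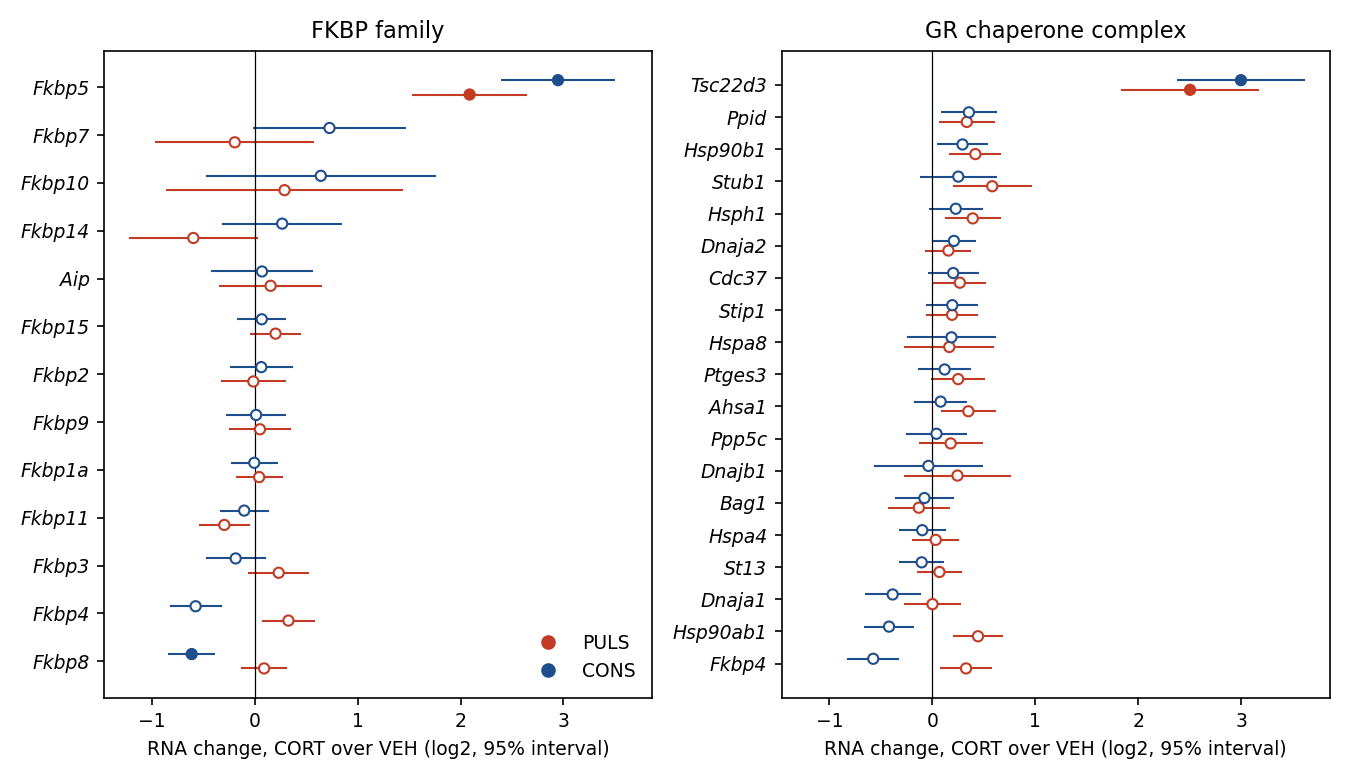
RNA change, CORT over matched VEH (log2, with 95% interval from edgeR), for the tested FKBP genes (left) and the tested genes listed with the GR chaperone complex (right), in PULS and CONS. Filled points passed the test. Fkbp5 and Tsc22d3 are filled in both patterns and Fkbp8 in CONS, and all other points are open, with changes of at most 0.73.

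Fkbp4, the HSP90 partner that competes with FKBP5 for the receptor complex, had 122, 92.3 and 115 CPM in PULS VEH, 141, 142 and 130 in PULS CORT, 133, 143 and 142 in CONS VEH, and 98.9, 98.0 and 84.0 in CONS CORT. PULS CORT thus lay above PULS VEH, and CONS CORT below CONS VEH, without overlap. The changes were 0.33 in PULS (edgeR adjusted p = 0.128) and -0.57 in CONS (adjusted p = 0.00406), the latter short of the 1.5-fold threshold, and their difference was -0.90 (adjusted p = 0.0580). Hsp90ab1, which encodes the constitutive HSP90, had changes of 0.44 in PULS (edgeR adjusted p = 0.0312), -0.42 in CONS (adjusted p = 0.0209), and a difference between these of -0.86 (adjusted p = 0.0580). Neither gene passed both thresholds in any of these. The vehicle groups differed by 0.35 for Fkbp4 and 0.42 for Hsp90ab1 (higher in CONS VEH, edgeR adjusted p of 0.414 and 0.347). The CORT groups differed by -0.56 and -0.45 (lower in CONS CORT, edgeR adjusted p of 0.0369 and 0.0741).

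Of 23 genes listed with the GR chaperone complex 19 were tested, and Tsc22d3 was the 1 called, raised in both patterns (2.50 and 3.00), against 1.79% and 4.45% of all genes. Tsc22d3 encodes GILZ, a glucocorticoid-induced leucine zipper protein, and is not itself a chaperone. The remaining 18, among them Hspa8, Stip1, Ptges3, Ppid and Ppp5c, had changes of -0.13 to 0.58 in PULS and -0.57 to 0.36 in CONS. The medians of the list were 0.25 and 0.12, against -0.01 over all genes in both patterns. Hsp90aa1 was listed at 0 reads in all 12 libraries. Whether this reflects its expression or how reads were counted for its identifier was not tested. Nr3c1, the gene of GR itself, was not analysed here. Of 8 tested genes of corticosterone availability, H6pd, which supplies the cofactor for regeneration of corticosterone in the endoplasmic reticulum, was raised in CONS (1.02, edgeR adjusted p = 0.000469; 4.45% of all genes were raised), with 0.57 in PULS (adjusted p = 0.0553). For pSer2 Pol2, 3 of 8 such genes were called by limma. Akr1d1, the steroid 5β-reductase, and Serpina6, which encodes corticosteroid-binding globulin, were lowered at PEAK_140 (0.636% of all genes were), Serpina6 was lowered at CONS_180 (0.0545%), and H6pd was raised at CONS_140 (0.648%).

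Fkbp5 was one of many established GR targets that rose. Of 30 such genes 26 were tested, of which 12 rose and 0 fell in PULS, and 17 rose and 3 fell in CONS, with median changes of 0.99 and 1.32. Over all genes, 1.79% were raised and 2.44% lowered in PULS, and 4.45% and 4.75% in CONS. The list was drawn up with results of these samples known and is not independent evidence of direction. Lpin1, a phosphatidate phosphatase, changed by 3.05 in PULS and 4.26 in CONS, Sds (serine dehydratase) by 3.02 and 4.11, Zbtb16 (a zinc finger repressor) by 2.74 and 3.44, and the clock gene Per1 by 2.74 and 3.12. The estimates for Fkbp5, 2.09 and 2.95, were below those of these 4 in both patterns, and the differences between genes were not tested. Lcn2 (lipocalin 2) had the greatest fall in CONS, -5.90, which rested on 1 CONS VEH library with 630 reads against 10 in each of the others, and the value without that library was -0.99 (edgeR adjusted p = 0.321). For pSer2 Pol2, 29 of the targets had windows with tags. Of these 9 rose and 1 fell at PEAK_140, 13 rose and 1 fell at CONS_140, and 6 rose at CONS_180 by limma. The shares over 16500 genes with windows were 0.382% raised and 0.636% lowered at PEAK_140, 0.648% and 0.176% at CONS_140, and 0.182% raised at CONS_180.

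The RNA profile most like that of Fkbp5 over the 12 libraries, by Pearson correlation of log2 CPM among 10725 genes with a mean of at least 10 reads, was that of Slc25a15, the mitochondrial ornithine carrier (r = 0.980). It was followed by Rasgef1b, a guanine nucleotide exchange factor (0.980), Map3k5, a stress-activated kinase (0.979), Itpr1, the type 1 IP3 receptor (0.978), and Eva1c (0.976). These libraries share 4 groups, so the likeness is mostly one of group levels. All 5 were raised in both patterns by edgeR, with 1.11 to 2.00 in PULS and 1.77 to 2.87 in CONS, against 1.79% and 4.45% of all genes raised. They were picked for likeness to Fkbp5 over these same libraries, so these calls follow from the choice and are not independent evidence. Rasgef1b came nearest in size, at 27.2 ± 2.05 CPM in PULS VEH, 109 ± 37.6 in PULS CORT, 29.4 ± 2.10 in CONS VEH and 214 ± 7.75 in CONS CORT (SD, n = 3). None of the 5 was among the top 5 by Spearman correlation.

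Over the 10 pSer2 Pol2 libraries, the genes most like Fkbp5 among 8113 were Dhdds, a dolichol synthesis enzyme subunit (r = 0.983), Pigu, a subunit of the GPI transamidase (0.974), Asap3 (0.964), AC110488.1 (0.963) and Polg2, the accessory subunit of the mitochondrial DNA polymerase (0.963). Pigu alone was also in the top 5 by Spearman correlation. In RNA, Dhdds, Pigu and Polg2 were raised in both patterns (0.81, 0.86 and 1.16 in PULS and 1.30, 1.44 and 2.07 in CONS), AC110488.1 was raised in CONS (2.57), and Asap3 was not called by edgeR (0.46 and 0.02). Of all genes, 1.79% were raised in PULS and 4.45% in CONS.

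Markers of other liver cells stayed low beside those of hepatocytes. Summed CPM per library were 269 to 485 for 6 Kupffer cell markers, 308 to 419 for 5 of liver endothelium, 56.7 to 85.3 for 6 of stellate cells and 8.31 to 15.8 for 5 of cholangiocytes, among which Krt19 was at 0. Erythroid markers (2) summed to 90.6 to 220 and lymphocyte markers (4) to 0 to 1.32. The markers called by edgeR over matched VEH were Dcn and Rgs5, 2 of the 6 of stellate cells and raised in CONS, and Cps1, 1 of the 8 of hepatocytes and a GR target raised in both patterns. The median change of the 6 stellate markers in CONS was -0.16, so the list did not rise as a whole. Of all genes, 1.79% were raised in PULS and 4.45% in CONS. The part of these in the Fkbp5 values was not tested.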

How the data were processed

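Per the labels and the study's methods, the authors aligned 50-base reads to rn6 and deposited log2 values of normalized tags per GR region and per 5′ gene window (pSer2 Pol2, up to 10 kb, made with HOMER 4.9.1), together with raw counts of reads per gene (featureCounts 1.6.2, Ensembl release 92). Input tags had been subtracted. RNA reads had been counted over exons. The GR scaling is described in more than one way in the sources. The authors' own fold change and p-value columns were not used. Counts of genes with more than 10 reads over 12 libraries were tested with edgeR 4.0.16 (quasi-likelihood, TMM), and log2 values with limma 3.58.1 (all 10 libraries of an assay, variance trend), in R 4.3.3. A call is an adjusted p (Benjamini-Hochberg, all features) below 0.05 with more than 1.5-fold change. Scripts were tested on simulated data with 200 changed features. Same-numbered pSer2 Pol2 libraries deviated together (6 pairs, r 0.15 to 0.55), and a replicate block changed no Fkbp5 call there. The labels do not say what a replicate number stands for. Genes named were Fkbp5, Fkbp4, Hsp90aa1 and Hsp90ab1 whatever their values (the rule also held Nr3c1, not analysed here), every gene starting within 150 kb, up to 6 members called in RNA per list by size of change, and the 5 most like profiles in each assay. Other genes (Dcn, Rgs5, Cps1 and those giving the ends of a range) were named after their values were seen. Members and lists were chosen with earlier results of these data known. Where RNA replicates are not separate animals, p-values measure technical spread. Alternatives tried were other scalings, filters, tools, a block, the libraries compared alone and leaving out each library.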

Additional observations from a re-analysis of the deposited data

Results flagged for a closer look

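The time courses of GR binding under pulses and under constant infusion differed by the test of the difference itself (limma) at 2 of the 7 regions near Fkbp5, against 43.6% of all regions, at 1 when any 1 library of PEAK_140, CONS_140 or CONS_180 was left out, and at 5 without NADIR_180 replicate 1. At 1.3 kb upstream of the TSS, PEAK_140 minus NADIR_180 exceeded CONS_140 minus CONS_180 by 4.36 on the log2 scale (adjusted p = 0.0319). At 73.0 kb upstream it did so by 4.33 (adjusted p = 0.00377). The median of this contrast over all regions was 3.11, so these sites stood 1.24 and 1.22 above it. With each library centred, the values were 0.97 and 0.94 (limma adjusted p of 0.726 and 0.741), against a median of -0.28 over all regions. With quantile normalization they were 1.30 and 2.72 (adjusted p of 0.416 and 0.0545), against a median of 0.092. Neither region was called under these scalings.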

How the results depend on the processing

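The 2 libraries per ChIP group and a shift of most GR regions limit these results, and scaling decides many of the GR calls. With each library centred or quantile normalized, the number of the 7 regions called was 1 and 1 (PEAK_140), 0 and 0 (NADIR_180), 3 and 4 (CONS_140) and 1 and 3 (CONS_180) against VEH, 0 and 1 for PEAK_140 against NADIR_180, 0 and 0 for the contrast of time courses, and 0 and 1 for CONS_180 against NADIR_180. From only the libraries compared it was 0 for NADIR_180 against VEH and 1 for CONS_180 against NADIR_180. Leaving out 1 library gave 6 to 7, 2 to 5 (5 without NADIR_180 replicate 2), 5 to 7 and 5 to 7 against VEH in the order above, 5 to 6 for PEAK_140 against NADIR_180, 1 to 5 for the contrast of time courses and 1 to 6 for CONS_180 against NADIR_180. Over all regions, centring left 534 called at PEAK_140 instead of 3204, 477 instead of 2590 at CONS_140, 327 instead of 2714 at CONS_180, 0 instead of 310 at NADIR_180, 216 instead of 2757 for PEAK_140 against NADIR_180, 40 instead of 1751 for the contrast of time courses and 0 instead of 1976 for CONS_180 against NADIR_180. PEAK_140 against CONS_140 gave 2, and 405 without CONS_140 replicate 1, and CONS_140 against CONS_180 gave 0, and 57 without CONS_140 replicate 2. With 1 library left out, the counts were 236 to 758 for NADIR_180 against VEH (758 without NADIR_180 replicate 2), 1744 to 2611 for PEAK_140 against NADIR_180 (1744 without PEAK_140 replicate 1), 688 to 2029 for the contrast of time courses (688 without PEAK_140 replicate 1) and 949 to 1983 for CONS_180 against NADIR_180 (949 without CONS_180 replicate 1). The cause of these moves, beyond the subtraction of the shift, was not tested.

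GR changes of opposite sign, centred and then quantile normalized, were as follows. Against VEH, the region at 112.2 kb gave -1.74 and -1.45 at PEAK_140, -1.38 and -1.12 at CONS_140, and -2.51 and -2.12 at CONS_180. The region at 143.7 kb gave -0.67 and -0.34 at PEAK_140, -0.33 and -0.27 at NADIR_180, -1.07 and -0.84 at CONS_140, and -1.26 and -0.93 at CONS_180, and that at 1.3 kb gave -0.20 at NADIR_180 when centred. For PEAK_140 against NADIR_180, values were -1.33 and -0.96 at 78.3 kb, -0.22 and -0.52 at 112.2 kb, -0.34 and -0.073 at 143.7 kb, and -0.052 at 20.0 kb (quantile). For CONS_140 against CONS_180, 20.0 kb gave -0.066 (quantile). For the contrast of time courses, values were -0.22 at 20.0 kb (centred), -2.95 and -2.35 at 78.3 kb, -0.94 and -0.72 at 84.1 kb, -1.34 and -1.52 at 112.2 kb, and -0.53 and -0.16 at 143.7 kb. For PEAK_140 against CONS_140 they were -0.23 and -0.11 at 1.3 kb, -0.36 and -0.33 at 112.2 kb, and 0.14 at 73.0 kb (quantile). For CONS_180 against NADIR_180 they were -0.76 and -0.14 at 78.3 kb, -0.98 and -1.19 at 112.2 kb, and -0.93 and -0.67 at 143.7 kb. Leaving out 1 library gave signs of both kinds for NADIR_180 against VEH (-0.58 to 2.54 at 1.3 kb, -1.66 to 0.97 at 112.2 kb, -0.19 to 1.88 at 143.7 kb), CONS_140 against CONS_180 (-0.049 to 0.60 at 20.0 kb, -0.24 to 0.72 at 143.7 kb), the contrast of time courses (-0.31 to 1.19 at 78.3 kb) and PEAK_140 against CONS_140 (-0.18 to 0.031 at 73.0 kb, -0.095 to 0.38 at 112.2 kb).

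For pSer2 Pol2 at Fkbp5, the PEAK_140 change of 1.83 passed the test when centred (1.92) or quantile normalized (2.28). The CONS_140 change (3.82) did not pass with only the libraries compared, nor the CONS_180 change (2.94) with those or without a variance trend, where the limma adjusted p were 0.560, 0.997 and 0.125. The contrast of time courses turned to 0.25 (centred) and 0.82 (quantile). Leaving out 1 library gave 3.06 to 4.57 at CONS_140, 2.19 to 3.70 at CONS_180, -0.38 to 0.32 for the contrast of time courses and -2.32 to -1.65 for PEAK_140 against CONS_140. Over all windows, 302 were called at CONS_140, 640 when centred and 501 with the block, 82 at CONS_180, with 282 and 132, and 379 at PEAK_140, with 783 and 577. Only the libraries compared gave 0, 13 and 0. Centring and the block gave 15 and 2 windows for NADIR_180 against VEH, instead of 2. They gave 257 and 484 for PEAK_140 against CONS_140, instead of 10, and 476 and 265 for PEAK_140 against NADIR_180, instead of 184. For CONS_180 against NADIR_180 they gave 152 and 77, instead of 65. CONS_140 against CONS_180 had 17 and 9, instead of 0, and the contrast of time courses 272 and 91, instead of 22. With 1 library left out, the count at CONS_140 was 5669 without CONS_140 replicate 2, 80 without CONS_140 replicate 1, 190 without VEH replicate 1 and 24 without VEH replicate 2. At CONS_180 it was 0 without either of its own libraries and 9 without VEH replicate 2. At PEAK_140 it was 69 and 134 without its own libraries, and 109 and 19 without VEH replicates 1 and 2. For PEAK_140 against CONS_140 it went from 10 to 8579 without CONS_140 replicate 2 and to 0 without either PEAK_140 library. Without CONS_140 replicate 2 it went from 0 to 5555 for CONS_140 against CONS_180 and from 22 to 7696 for the contrast of time courses, which gave 0 without CONS_140 replicate 1 or either CONS_180 library. For CONS_180 against NADIR_180 it went from 65 to 0 without either CONS_180 library, and for PEAK_140 against NADIR_180 from 184 to 2 without PEAK_140 replicate 1 or NADIR_180 replicate 1.

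For RNA, same-numbered libraries did not deviate together (18 pairs, r -0.13 to 0.17, 2 above 0.1), nor for GR (6 pairs, r -0.03 to 0.07). CONS CORT against PULS CORT for Fkbp5 was 0.96 and called with the replicate block, with DESeq2 (0.96) and without a filter (0.96), and 0.67 to 1.28 when 1 library was left out. With the block, the responses were 2.03 in PULS and 2.93 in CONS, both called. CONS VEH against PULS VEH was -0.045 to 0.31 with 1 library left out. Over all genes PULS CORT against PULS VEH gave 596 calls, and 351 and 336 without PULS CORT replicates 1 and 2. CONS CORT against PULS CORT gave 125 calls, 209 with DESeq2, 273 without a filter, 22 and 33 without PULS CORT replicates 2 and 3, and 38 and 78 without CONS CORT replicates 1 and 3, and the interaction gave 4, 215 with DESeq2, 204 without a filter, 9 with the block, 288 without CONS VEH replicate 1, 25 without CONS CORT replicate 2 or PULS CORT replicate 1, and 1 to 15 without any other library. Of the corticosterone availability list, 2 genes were called in CONS without a filter and 2 with the block. Leaving out 1 library gave 0 to 1 there in PULS and 1 to 2 in CONS, 1 to 2 for the chaperone list in CONS, and signs of both kinds for Lcn2 in PULS (-0.075 to 0.85), Fance in PULS (-0.21 to 0.14) and CONS (-0.18 to 0.11), Tead3 in PULS (-0.23 to 0.098) and Pim1 in CONS (-0.14 to 0.25). By Spearman correlation 0 of the 5 most like genes in RNA and 1 in pSer2 Pol2 remained, and a 50 kb window held 2 regions.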
